A study of Mus musculus with 16 samples.

Results

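The effect of adding cabozantinib to PD1 blockade was read from 7 of the 16 tumour arrays of the series: the 4 tumours labelled Anti-PD1+Cabozantinib (Combination) and the 3 labelled Anti-PD1 (AntiPD1). Male C57BL/6 mice aged 5 weeks carried Hepa1-6 cells, a mouse hepatocellular carcinoma line, injected into the flank in 50% Matrigel. Treatment began when tumours measured 200 to 300 mm3, and the mice were culled on day 14. AntiPD1 mice received the hamster anti-mouse PD1 antibody J43 by intraperitoneal injection, in 5 doses of 10 mg/kg given 3 days apart. Combination mice received the same antibody schedule and cabozantinib, an oral inhibitor of several receptor tyrosine kinases, at 30 mg/kg daily. The other arrays held 5 Cabozantinib tumours, given the kinase inhibitor alone at that dose, and 4 Placebo tumours, given hamster IgG on the antibody schedule. Each array held the RNA of one subcutaneous tumour of 1 transplanted line, so its values mix tumour cells with the vessels, immune cells and adjoining tissue of the host. In such bulk tumours, fewer cells of a type and less RNA per cell cannot be told apart.

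Values below are log2 array signals, so that 1 unit is a factor of 2, and a change is the Combination mean minus the AntiPD1 mean with its standard error (SE). A gene was said to rise or fall where the adjusted p of limma, a linear model fitted to all 17097 genes and 16 arrays with Benjamini-Hochberg adjustment, was under 0.05. The median signal of an array lay between 4.92 and 5.13, and levels near it are close to the background of the array, where a fold change understates the true one. The hepatoma genes Alb and Afp, which encode albumin and alpha-fetoprotein, were at 12.84 to 13.17 and 12.41 to 12.66 in the 7 tumours. The leukocyte gene Ptprc was at 11.30 to 11.68, and the skin keratin gene Krt14 stayed at 4.13 to 4.56. The 3′ minus 5′ signal of the actin control, a sign of RNA quality, was 0.45 in each AntiPD1 tumour and 0.41 to 0.47 in the Combination tumours. AntiPD1 replicate 2 and Combination replicate 4 stood apart from the other tumours of their groups in skeletal muscle genes, and Combination replicates 1 and 2 in fat genes, as described with those tissues.

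Cabozantinib blocks the VEGF receptors, MET, AXL, KIT, RET and related kinases. VEGF receptor 2, the product of Kdr, carries the signal that makes endothelial cells sprout, and sprouts are led by tip cells that express genes such as Esm1 and Apln. Tissue that is poorly perfused stabilises hypoxia-inducible factors, which switch on Vegfa, glucose uptake and glycolysis. PD1 is a brake on T cells, and antibodies against it release CD8 T cells that produce interferon gamma and granzymes.

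Vessel genes led the change. Adding cabozantinib to the antibody lowered 39 of 17097 genes (0.228%) and raised 1 (0.00585%). In each of the 39, all 4 Combination tumours lay below all 3 AntiPD1 tumours, an order found for 755 of all genes (4.42%), and the opposite order for 727 (4.25%). The 39 were chosen for their fall in these same tumours, which favours this order, so it is a description. Of the 39, 32 fell at least 2-fold, and 17 belonged to 2 lists of vessel genes with 58 measured members. The lists were chosen with earlier results of these data known, so this overlap is not independent support. The median change over all genes was 0.00. At an unadjusted p under 0.05, 673 genes were lower (3.94%) and 560 higher (3.28%), 1233 in all against 854.85 that this threshold gives by itself. These shares, and those of the 2 orders above, are the background for the list counts below. The number of falls depended on single tumours: it was 23 without AntiPD1 replicate 1, 12 without AntiPD1 replicate 2, 21, 17 and 19 without Combination replicates 1, 2 and 3, and up to 49 when other arrays were left out. It was 14 without the 4 arrays high in muscle genes and 6 without the 3 arrays high in fat genes, a setting chosen after seeing the data. All 39 genes kept their direction in each of these fits, and Esm1, Gpihbp1, Cdh5, Apold1, Clca2 and Adgrf5 were the 6 that passed without the arrays high in fat genes. With each of the 16 arrays left out in turn, the calls of Apln, Apold1, Bmp2, Cdh5, Chga, Clca2, Esm1, Fam167b, Gpihbp1 and Prnd were kept each time.

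Esm1, which encodes the tip cell proteoglycan endocan and is induced by VEGF, had the strongest statistic. Its signal was 7.82, 8.31 and 8.64 in the AntiPD1 tumours and 5.11, 4.45, 4.90 and 4.78 in the Combination tumours. Every Combination value was at the array background, and the groups were separated by over 2 units. The change was -3.45 ± 0.24 (SE), a 10.9-fold lower signal (adjusted p = 9.16e-06). Gpihbp1, the capillary protein that anchors lipoprotein lipase to the endothelium, read 7.84, 8.22 and 7.88 against 4.75, 4.36, 4.95 and 5.11. The groups did not overlap, and the fall was -3.19 ± 0.31 (SE), or 9.11-fold (adjusted p = 0.000249). Cdh5, which encodes VE-cadherin, the adhesion protein of endothelial junctions, read 7.39, 7.81 and 7.28 against 5.14, 5.04, 5.29 and 5.65. It fell by 2.22 ± 0.23 (SE; adjusted p = 0.000489), to a level close to the array background. Emcn, the endothelial sialomucin endomucin, read 8.04, 8.92 and 7.92 against 6.11, 5.79, 6.14 and 6.10 and fell by 2.26 ± 0.35 (SE; adjusted p = 0.0139). Apln, which encodes the tip cell peptide apelin, read 7.25, 8.14 and 7.33 against 5.92, 6.06, 5.70 and 6.16 and fell by 1.61 ± 0.23 (SE; adjusted p = 0.00794). The call of Emcn was lost without AntiPD1 replicate 2 (adjusted p = 0.08) or Combination replicate 2. For Emcn, Apln and Kdr the highest AntiPD1 value belonged to replicate 2, the tumour high in muscle genes. With the muscle mean as a covariate, all 39 falls passed the threshold. Only 10 of them passed without the arrays high in muscle genes, and 11 without AntiPD1 replicate 2 alone.

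**Figure D1:**
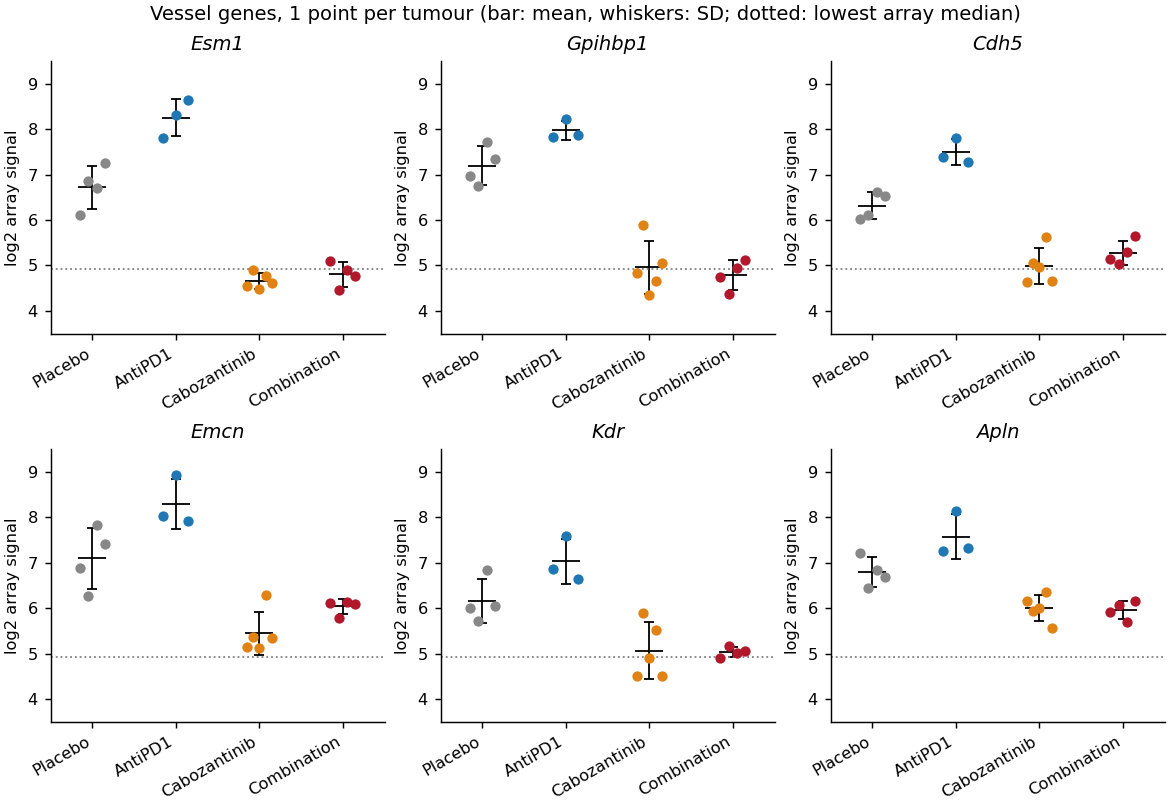
Log2 array signal of 6 vessel genes (1 panel each) in the 4 treatment groups, 1 point per tumour, with the group mean (bar) and SD (whiskers) and the lowest array median, 4.92, as a dotted line. In each panel the 4 Combination tumours lie below the 3 AntiPD1 tumours, and for Esm1 they lie between 4.45 and 5.11, near the dotted line.

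Of the members of the 2 vessel lists and the hypoxia list, which leave out Apold1 and Notch4, the promoters of the 5 with the largest statistics were looked up, and Esm1, Apln and Emcn had an entry in RefSeq's table (build GRCm38.p6). Each sequence runs 5′ to 3′ on the strand of its gene, from 250 bases before the transcription start to 50 after it. Capitals mark matches, on either strand, to the hypoxia response core (ACGTG or GCGTG), an ETS core (GGAAGT), an AP-1 site (TGACTCA) or a TATA box (TATAAA).
Esm1, chr13:113209409-113209708, plus strand: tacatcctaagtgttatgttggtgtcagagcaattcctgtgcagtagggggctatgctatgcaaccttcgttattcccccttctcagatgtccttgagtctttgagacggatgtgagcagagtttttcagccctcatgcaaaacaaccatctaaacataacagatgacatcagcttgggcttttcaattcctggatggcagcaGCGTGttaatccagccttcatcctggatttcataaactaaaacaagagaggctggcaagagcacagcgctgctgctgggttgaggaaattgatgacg
Apln, chrX:48034804-48035103, minus strand: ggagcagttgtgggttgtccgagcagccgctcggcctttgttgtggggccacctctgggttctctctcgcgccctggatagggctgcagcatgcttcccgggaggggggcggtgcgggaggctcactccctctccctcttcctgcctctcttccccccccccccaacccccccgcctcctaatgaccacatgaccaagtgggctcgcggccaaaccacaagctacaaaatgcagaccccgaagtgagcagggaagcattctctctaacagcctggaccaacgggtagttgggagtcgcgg
Emcn, chr3:137340828-137341127, plus strand: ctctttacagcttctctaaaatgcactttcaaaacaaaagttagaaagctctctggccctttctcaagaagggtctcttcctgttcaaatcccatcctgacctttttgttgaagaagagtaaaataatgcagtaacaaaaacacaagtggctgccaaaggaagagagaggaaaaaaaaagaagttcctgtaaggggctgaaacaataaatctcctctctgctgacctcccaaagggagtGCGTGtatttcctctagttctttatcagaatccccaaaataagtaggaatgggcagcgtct
A hypoxia core, GCGTG, lies 47 bases before the start of Esm1 and 11 bases before that of Emcn, and none of these letters occur in the Apln window. The hypoxia core is a common string, held by 43.8% of 27025 promoters, against 16 of the 28 promoters found for the 39 lowered genes (57.1%). The ETS core was held by 7 of the 28 (25%; all promoters 24.1%), the AP-1 site by 1 (3.57%; 5.17%) and the TATA box by 4 (14.3%; 14.2%). These matches are descriptions of the letters and not of binding.

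Endothelial identity genes were lower as a group. Of 34 measured, 11 fell and none rose, 23 had an unadjusted p under 0.05 in the lower direction, and the median change was -0.91. Beyond Gpihbp1, Cdh5 and Emcn, the rule for named genes picked Sox7 (-0.86 ± 0.14, SE), a transcription factor of arterial and sprouting endothelium, Icam2 (-1.19 ± 0.19) and Ushbp1 (-0.89 ± 0.15), all with an adjusted p between 0.0157 and 0.0197. Sox18, a related endothelial transcription factor, read 7.17, 8.23 and 6.91 against 5.19, 5.60, 5.35 and 5.25 and fell by 2.09 ± 0.36 (SE), a call lost without any 1 of 6 arrays (highest adjusted p = 0.127, without AntiPD1 replicate 2). Pecam1, the general endothelial adhesion gene CD31, had a change of -1.23 ± 0.30 (SE) and did not pass (adjusted p = 0.171). Its AntiPD1 values of 7.34, 8.16 and 7.65 nonetheless all lay above the Combination values of 6.21, 6.70, 6.53 and 6.51. Flt1, VEGF receptor 1, was near level between the groups, at 8.13, 8.24 and 7.85 against 7.89, 8.27, 8.15 and 7.89. Its change of -0.02 had a 95% interval of -0.58 to 0.54 and turned positive under some settings.

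Genes of tip cells and of VEGF-driven sprouting split. Of 24, 6 fell, 11 were lower at an unadjusted p under 0.05, and the median change was -0.31. The 6 were Esm1, Apln, the basement membrane collagens Col4a1 and Col4a2, Mcam, an endothelial and pericyte adhesion gene, and Trp53i11. Col4a1 read 10.79, 11.44 and 10.62 against 10.06, 9.36, 9.62 and 9.62, a fall of -1.28 ± 0.20 (SE; adjusted p = 0.0157). Col4a2, its partner chain, fell by 1.24 ± 0.19 (SE). Both remained far above the array background, unlike Esm1, and both calls were lost without AntiPD1 replicate 2 (adjusted p = 0.08 and 0.0632). Mcam fell by 1.23 ± 0.23 (SE) and Trp53i11 by 0.95 ± 0.17 (SE), with adjusted p values of 0.0474 and 0.0277. Without AntiPD1 replicate 2 these were 0.22 and 0.156. With 1 array left out in turn, the Mcam call was lost in 15 of 16 fits and that of Trp53i11 in 5. Of the list's other 18 members, 8 had a change above 0, the highest 0.36.

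Among 12 kinases that cabozantinib inhibits, Kdr and Kit fell, and the median change was -0.02. Kdr, the gene of VEGF receptor 2, read 6.86, 7.59 and 6.64 against 4.91, 5.16, 5.00 and 5.04. It fell by 2.00 ± 0.34 (SE; 4.01-fold; adjusted p = 0.0209), and its Combination values differed from each other by less than those of any other group. The call was lost without AntiPD1 replicate 1 or 2 or any 1 of the Combination tumours, with an adjusted p of at most 0.123. Kit, the receptor of stem cell factor on mast cells and progenitors, read 6.29, 6.89 and 6.35 against 5.00, 5.29, 5.53 and 5.25 and fell by 1.24 ± 0.23 (SE; adjusted p = 0.039). The call was lost in 11 of 16 fits with 1 array left out, with an adjusted p of up to 0.204 without AntiPD1 replicate 2. Met, the receptor of hepatocyte growth factor, was abundant and near level, at 10.29, 10.18 and 10.24 against 10.65, 10.26, 10.46 and 10.32 (change 0.19 ± 0.13, SE). Another Met probe set, with a mean of 6.79 over all arrays, changed by 0.48 ± 0.20 (SE). It did not pass in a limma fit of all probe sets with 1 gene symbol (adjusted p = 0.685). None of the 15 ligands of these kinases rose or fell, and at an unadjusted p under 0.05 there were 1 higher and 2 lower. The largest statistics among them were those of Vegfa, at 0.79 ± 0.18 (SE), and of Angpt2, the vessel-destabilising angiopoietin, at -0.83 ± 0.20 (SE; adjusted p = 0.158).

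Pericytes and smooth muscle cells wrap vessels. None of their 12 genes rose or fell, 4 were lower at an unadjusted p under 0.05, and the median change was -0.28. Rgs5, a pericyte marker, read 11.02 to 11.52 in the AntiPD1 tumours against 10.43, 10.46, 10.65 and 10.78, a change of -0.64 ± 0.16 (SE; adjusted p = 0.176), and Higd1b changed by -0.91 ± 0.26 (SE; adjusted p = 0.263). Of 21 genes of BMP signalling, a pathway active in endothelium, only the ligand gene Bmp2 fell. It read 6.32, 7.01 and 7.06 against 4.90, 4.82, 5.05 and 5.20, a change of -1.81 ± 0.23 (SE; adjusted p = 0.00314). Hey1, a Notch and BMP target, changed by -0.76 ± 0.19 (SE; adjusted p = 0.173), and the list's median change was -0.03.

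The remaining lowered genes reached beyond these lists. The rule for the 12 largest falls also picked Prnd, which encodes the prion-like protein doppel, Ptn, the growth factor pleiotrophin, and Fam167b. Prnd read 6.61, 7.31 and 5.58 against 4.29, 4.34, 4.21 and 4.05, and Ptn 6.65, 6.70 and 6.61 against 4.06, 5.1, 4.40 and 4.39. Ptn was level among the AntiPD1 tumours and fell by 2.17 ± 0.35 (SE; lost without any 1 of 4 arrays, highest adjusted p = 0.08), while Prnd ranged over more than 1 unit among them and fell by 2.28 ± 0.30 (SE). Fam167b fell by 1.70 ± 0.24 (SE; adjusted p = 0.00794). The other genes that fell, named here to complete the set after their values were seen, were Adgrf5, Adgrl4, Apold1, Bcl6b, Chga, Chst7, Clca2, Efnb2, Egfl7, Esam, Fgd5, Ifi213, Notch4, Pcdh18, Rapgef5, She, Slc40a1 and Tie1. Several are endothelial genes by background knowledge, such as the receptor genes Tie1 and Notch4, the arterial ephrin gene Efnb2, the junction gene Esam and the secreted factor gene Egfl7. The call of Tie1 was lost in 13 of 16 fits with 1 array left out. That of Esam was lost in 7, Egfl7 in 6, Efnb2 in 5 and Notch4 in 1. Rapgef5 was lost in 15, Bcl6b and She in 14 and Chst7 in 13. Adgrf5, Adgrl4, Fgd5, Pcdh18 and Slc40a1 were lost in 1 to 5. Apold1, an immediate early gene of endothelium, read 6.79, 7.01 and 7.0 against 5.33, 5.65, 5.41 and 5.61 and fell by 1.44 ± 0.17 (SE; adjusted p = 0.00168). Slc40a1, the iron exporter ferroportin, fell by 1.29 ± 0.20 (SE) and Chga, chromogranin A, by 1.39 ± 0.18 (SE). For 16 of the 39 genes the Combination mean lay under 4.92, the lowest array median, and for 0 the AntiPD1 mean did. A second probe set was measured for 15 of the 40 genes past the threshold. All 8 of their other probe sets with a mean above 4.92 changed in the same direction, while both other probe sets of Notch4 and 1 of Rapgef5, all near background, did not.

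**Figure D2:**
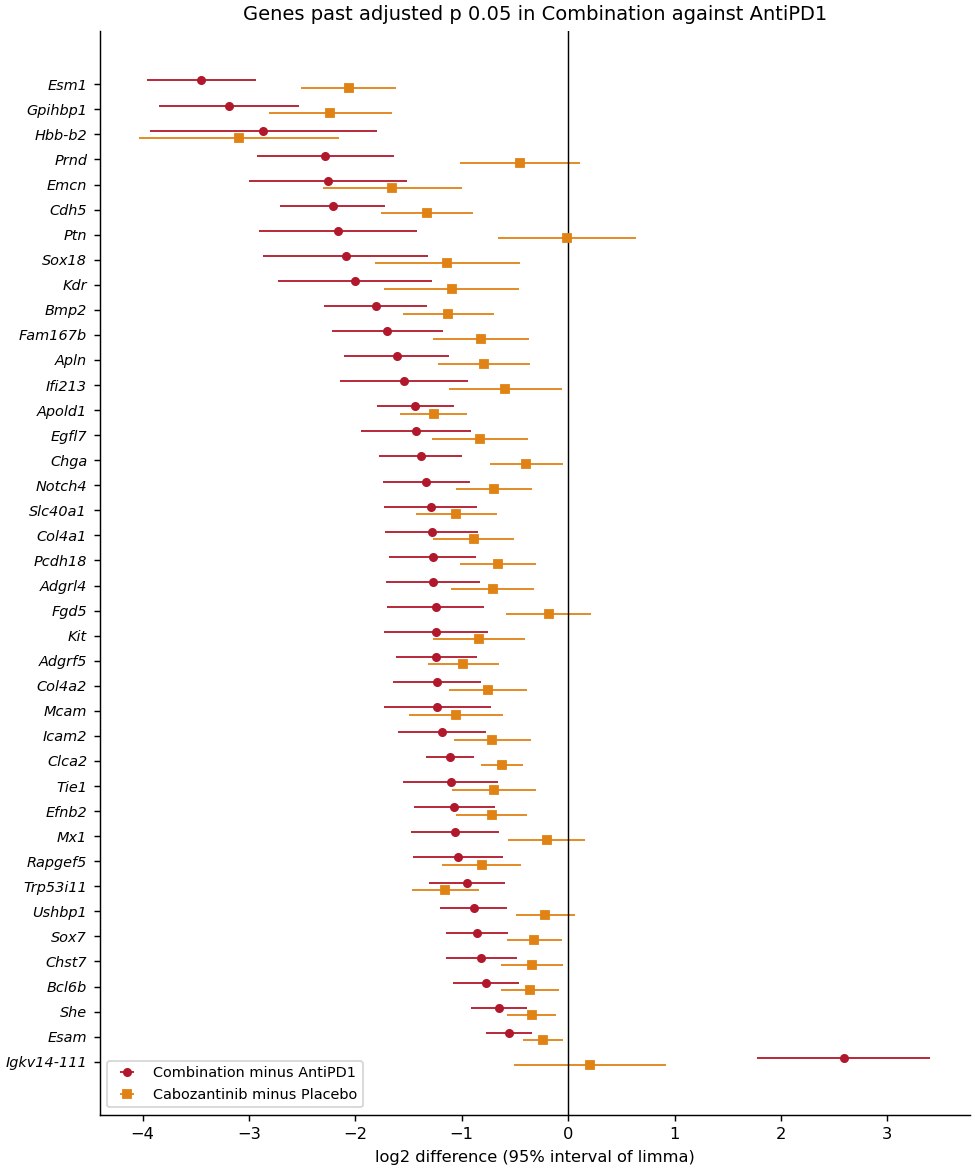
Log2 differences with 95% intervals for the 40 genes past the threshold in Combination against AntiPD1 (circles), beside the same genes in Cabozantinib against Placebo (squares). The 39 lowered genes lie left of 0 in both comparisons, and Igkv14-111 is the 1 gene on the right.

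Hypoxia targets lay higher in the Combination tumours, though none passed the threshold. All 22 had a change above 0, and the median was 0.33. Of them, 14 had an unadjusted p under 0.05 (3.28% of all genes were higher at that p). In 13 of the 22, all 4 Combination tumours lay above all 3 AntiPD1 tumours (4.25% of all genes). Vegfa, the main ligand of VEGF receptor 2, read 9.29, 9.21 and 8.57 against 9.89, 9.66, 9.89 and 9.81 (change 0.79 ± 0.18, SE; adjusted p = 0.132). Ero1a, an oxidase of the endoplasmic reticulum, read 10.53, 10.02 and 9.84 against 10.90, 11.01, 10.92 and 10.60 (change 0.72 ± 0.16, SE; adjusted p = 0.097). Vegfa did not overlap between the groups, and neither did Ero1a. Ero1a passed, with a change of 0.92 (adjusted p = 0.0281), when AntiPD1 replicate 1, whose Ero1a signal was the highest of its group, was left out. Slc2a1, the glucose transporter GLUT1, changed by 0.26 ± 0.09 (SE; adjusted p = 0.495), and Car9, carbonic anhydrase IX, by 0.32 ± 0.19 (SE; adjusted p = 0.813). All 15 glycolysis enzymes also had a change above 0, with a median of 0.18, and 4 had an unadjusted p under 0.05. Hexokinase 2 (Hk2) changed by 0.28 ± 0.08 (SE) and Pgk1 by 0.21 ± 0.06 (SE), with adjusted p values of 0.313 and 0.358. The hypoxia core ACGTG or GCGTG was found in 15 of the 19 hypoxia target promoters in the RefSeq table (78.9%; all promoters 43.8%), a list of genes known partly from such sites.

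Type I interferon genes lay lower. All 18 had a change below 0, and the median was -0.64. Of them, 14 had an unadjusted p under 0.05 (3.94% of all genes were lower at that p). In 16, every Combination tumour lay below every AntiPD1 tumour (4.42% of all genes). The median of the list mean was 0.63 in AntiPD1, -0.045 in Combination, -0.073 in Placebo and -0.34 in Cabozantinib tumours. The Combination tumours were thus near the Placebo level. Mx1, an antiviral GTPase, was the 1 member that fell. It read 7.94, 7.21 and 7.55 against 6.25, 6.56, 6.68 and 6.52, a change of -1.06 ± 0.19 (SE; adjusted p = 0.0336). The call was lost without any 1 of 6 arrays, with an adjusted p of up to 0.166 without AntiPD1 replicate 1. Irf7, the transcription factor that amplifies the response, read 8.84, 8.43 and 8.47 against 7.38, 7.17, 7.46 and 6.74 (change -1.40 ± 0.32, SE; adjusted p = 0.132). Ifi213, an interferon-inducible gene outside the list, fell by 1.54 ± 0.28 (SE; adjusted p = 0.0376), with values of 8.62, 8.30 and 8.20 against 6.67, 6.99, 7.03 and 6.62, and without AntiPD1 replicate 1 its adjusted p was 0.169. The call of Ifi213 was lost in 11 of 16 fits with 1 array left out. Genes of its family are similar in sequence, so the probe set may read more than 1 of them. Targets of interferon gamma and the MHC genes had a median change of 0.06 over 17 members. None rose or fell, 1 was lower at an unadjusted p under 0.05, and the largest statistic was that of Ido1, which encodes an enzyme of tryptophan breakdown, at -0.92 ± 0.23 (SE; adjusted p = 0.173).

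**Figure D3:**
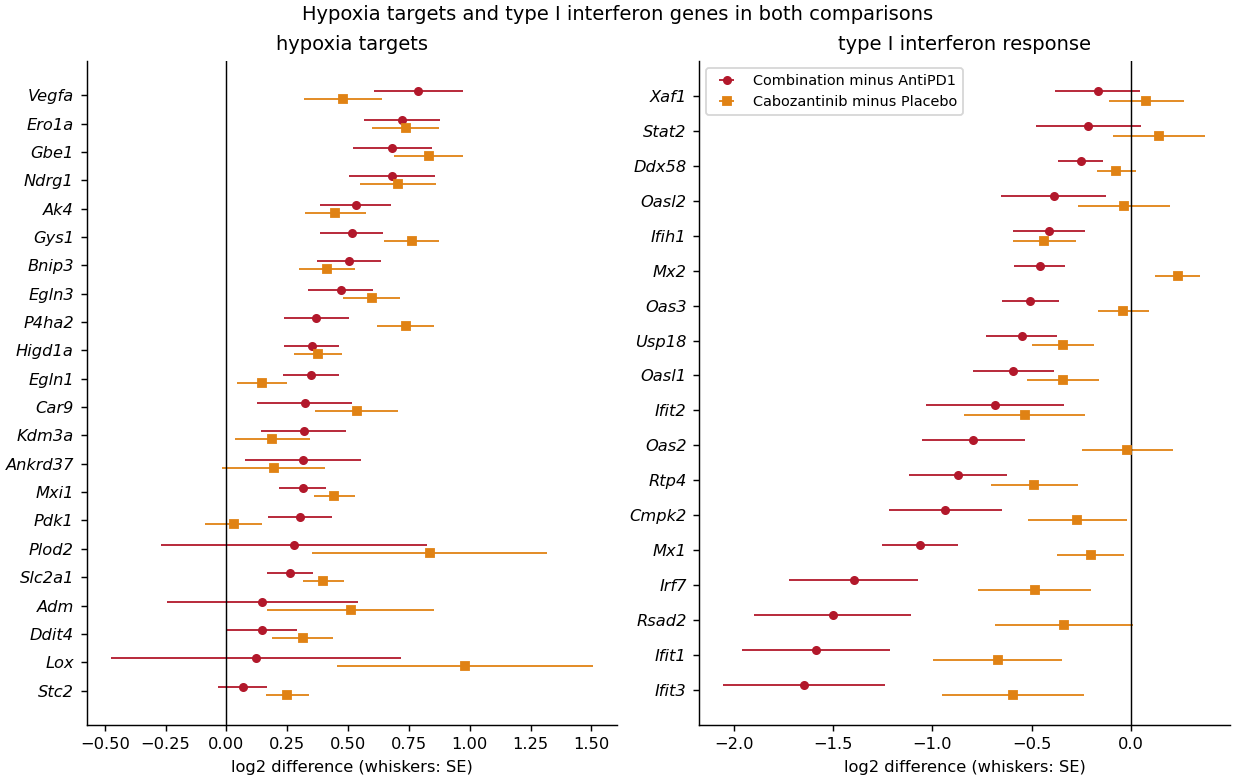
Log2 differences with SE for the 22 hypoxia targets (left panel) and 18 type I interferon genes (right panel), in Combination against AntiPD1 (circles) and Cabozantinib against Placebo (squares). All circles lie right of 0 for the hypoxia targets and left of 0 for the interferon genes.

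Haemoglobin transcripts, which come with red blood cells, were lower. Hbb-b2 read 11.88, 11.81 and 12.46 against 9.46, 8.13, 9.03 and 10.13 and fell by 2.86 ± 0.50 (SE; adjusted p = 0.0273). The call was lost without any 1 of 6 arrays (highest adjusted p = 0.107, without AntiPD1 replicate 3). Its probe set may also read the near-identical Hbb-b1. Hba-a1 read 12.20, 12.05 and 12.77 against 9.90, 8.59, 9.63 and 10.66, a change of -2.64 ± 0.52 (SE) that did not pass (adjusted p = 0.059). In a limma fit of all probe sets with 1 gene symbol, the other Hba-a1 probe sets changed by -2.61 and -2.79. Their adjusted p values there were 0.0497 and 0.0302, against 0.0681 for the kept one. Hbb-b2 was the 1 fall among 8 red cell and platelet genes, whose median change was -0.42. Mast cell genes were lower or level: all 12 had a change below 0, 7 with an unadjusted p under 0.05, and the median was -1.14. Kit alone passed. Cpa3, mast cell carboxypeptidase, read 8.95, 9.83 and 6.59 against 5.86, 5.99, 5.89 and 6.38 (change -2.42 ± 0.77, SE; adjusted p = 0.37). AntiPD1 replicate 3 was far below the other AntiPD1 tumours and close to the Combination tumours.

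Neutrophils, named in the title of the study, gave mixed values. None of 22 neutrophil genes rose or fell, 1 was higher and 4 lower at an unadjusted p under 0.05, and their median change was 0.02. S100a8 and S100a9, which encode the subunits of calprotectin, were abundant and overlapped between the groups. S100a8 read 10.15, 9.70 and 8.52 against 10.33, 9.66, 9.53 and 8.62, and its change of 0.08 had a 95% interval of -1.19 to 1.34. S100a9 read 10.06, 9.29 and 8.29 against 10.42, 9.54, 9.54 and 8.57, and its interval was -1.05 to 1.66. The signs of both changed under other settings. The largest statistics of the list were those of Ngp and Camp, which did not pass. Ngp, neutrophilic granule protein, read 8.58, 7.64 and 4.52 against 4.37, 4.55, 4.52 and 4.77 (change -2.36 ± 0.68, SE; adjusted p = 0.286). Camp, the antimicrobial peptide cathelicidin, read 7.13, 6.56 and 4.23 against 3.91, 4.15, 4.40 and 3.99 (change -1.86 ± 0.51, SE; adjusted p = 0.242). Both were at background in the Combination tumours and in AntiPD1 replicate 3, so that 2 AntiPD1 tumours carried the difference. Of 9 neutrophil-attracting factors none rose or fell, and 1 was higher and 1 lower at an unadjusted p under 0.05. Csf2, the growth factor GM-CSF, changed by 0.66 ± 0.24 (SE; adjusted p = 0.516), and Cxcl15 by -0.63 ± 0.27 (SE; adjusted p = 0.643). Cxcl2 overlapped between groups, at 10.65, 8.41 and 9.76 against 10.44, 9.71, 9.81 and 8.81.

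No T cell or cytotoxic gene rose or fell. Over 13 T cell genes the median change was -0.15, and over 16 genes of cytotoxic lymphocytes and NK cells -0.24. At an unadjusted p under 0.05, 0 of the former and 1 of the latter, in the lower direction, passed. Cd8a, the CD8 coreceptor, read 8.74, 8.92 and 9.42 against 9.13, 8.87, 8.81 and 8.43 (change -0.22, 95% interval -0.91 to 0.47). Gzmb, granzyme B, read 10.21, 9.92 and 10.51 against 11.15, 9.92, 10.02 and 8.83, so the Combination tumours lay on both sides of the AntiPD1 tumours. Ifng, interferon gamma, read 7.13, 7.33 and 7.29 against 7.98, 7.67, 7.71 and 6.88, with 3 of 4 Combination tumours above every AntiPD1 tumour (change 0.31 ± 0.45, SE). Pdcd1, the gene of PD1, read 7.54, 7.42 and 8.08 against 8.27, 7.49, 7.12 and 7.16, and Cd274, the gene of its ligand PD-L1, 10.40, 10.39 and 10.07 against 10.75, 10.90, 10.82 and 10.44. Cd274 was higher in every Combination tumour (change 0.44 ± 0.24, SE; adjusted p = 0.775). The signal of Tnfrsf9, the gene of the T cell activation receptor CD137, was 8.28, 8.12 and 7.59 against 9.36, 9.49, 9.55 and 8.43 (change 1.21 ± 0.40, SE; adjusted p = 0.397). It too did not overlap between groups and did not pass. None of the 17 checkpoint and regulatory T cell genes rose or fell, 1 was higher and 1 lower at an unadjusted p under 0.05, and their median change was 0.17.

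Antibody genes gave the 1 rise. Igkv14-111, a variable segment of the kappa light chain expressed by B and plasma cells, read 4.60, 5.87 and 3.68 in the AntiPD1 tumours and 6.75, 7.11, 7.63 and 7.74 in the Combination tumours. All Combination tumours were above all AntiPD1 tumours, most of which were at background, and the change was 2.59 ± 0.38 (SE; adjusted p = 0.00934). It no longer passed without the arrays high in fat genes or in a fit of the 2 groups alone. Igkv15-103 had a larger but more variable change of 5.08 ± 1.06 (SE; adjusted p = 0.0737), at 4.99, 5.44 and 4.03 against 7.09, 11.01, 9.60 and 11.92. Such segments are similar to each other, and the probe sets may read several. After these values were seen, all 16 immunoglobulin genes of the table were looked at: 14 had a change above 0, with a median of 0.77, against a median of -0.01 in Cabozantinib against Placebo. None of 14 B and plasma cell genes rose or fell, 2 were higher at an unadjusted p under 0.05, 11 had a change above 0, and the median was 0.32. Pou2af1, a coactivator of antibody genes, read 4.25, 6.45 and 3.76 against 5.85, 7.24, 5.44 and 8.02 (change 1.82 ± 0.60, SE; adjusted p = 0.406), and AntiPD1 replicate 2 lay within the Combination range. Tnfrsf17, which encodes the plasma cell receptor BCMA, changed by 0.53 ± 0.19 (SE; adjusted p = 0.522).

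Macrophage genes were close to level: none of 21 rose or fell, 1 was higher and 1 lower at an unadjusted p under 0.05, 18 had a change above 0, and the median was 0.16. Cd163, a scavenger receptor gene, changed by 0.96 ± 0.38 (SE; adjusted p = 0.574), and Cx3cr1, a chemokine receptor gene, by -0.73 ± 0.26 (SE; adjusted p = 0.492). The 15 genes of alternatively activated macrophages had a median change of 0.33, with 0 called and 2 higher at an unadjusted p under 0.05, and Ccl17 was at 1.09 ± 0.44 (SE; adjusted p = 0.593). Of 11 dendritic cell genes 5 were lower at an unadjusted p under 0.05, and none fell. Their median was -0.13, and the actin-bundling gene Fscn1 had a change of -1.21 ± 0.50 (SE; adjusted p = 0.612).

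Proliferation genes were slightly lower without passing. All 35 genes of DNA replication and mitosis had a change below 0, 12 with an unadjusted p under 0.05, and the median was -0.30. Tyms, thymidylate synthase, read 8.68, 8.53 and 9.05 against 8.61, 8.13, 8.23 and 8.17 (change -0.46 ± 0.16, SE; adjusted p = 0.431), and Mcm4, a subunit of the replicative helicase, changed by -0.28 ± 0.10 (SE). In 3 of the 35, all Combination tumours lay below all AntiPD1 tumours (4.42% of all genes), and Mki67 was near level at -0.09 ± 0.13 (SE). Among 23 hepatocyte and fetal liver genes none rose or fell, 1 was higher and 4 lower at an unadjusted p under 0.05, and the median was -0.17. Cyp2e1, a cytochrome P450 of hepatocytes and fat, read 4.67, 6.11 and 4.27 against 9.55, 9.71, 6.57 and 7.81 (change 3.39 ± 1.13, SE; adjusted p = 0.414) and, among the 7, was highest in the tumours that were highest in fat genes. The median change of 17 immediate early genes was 0.19, and Junb changed by 0.44 ± 0.15 (SE) and Klf4 by 0.48 ± 0.20 (SE), with adjusted p values of 0.421 and 0.603. Medians were 0.01 for 20 unfolded protein and amino acid stress genes, 0.10 for 18 cholesterol and fatty acid synthesis genes, -0.01 for 23 respiratory chain genes, -0.11 for 24 fibroblast and matrix genes, and 0.00 for 21 ribosomal protein genes. None of these members rose or fell. At an unadjusted p under 0.05, 4 immediate early genes and 1 gene each of the stress, cholesterol and respiratory lists were higher.

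**Figure D4:**
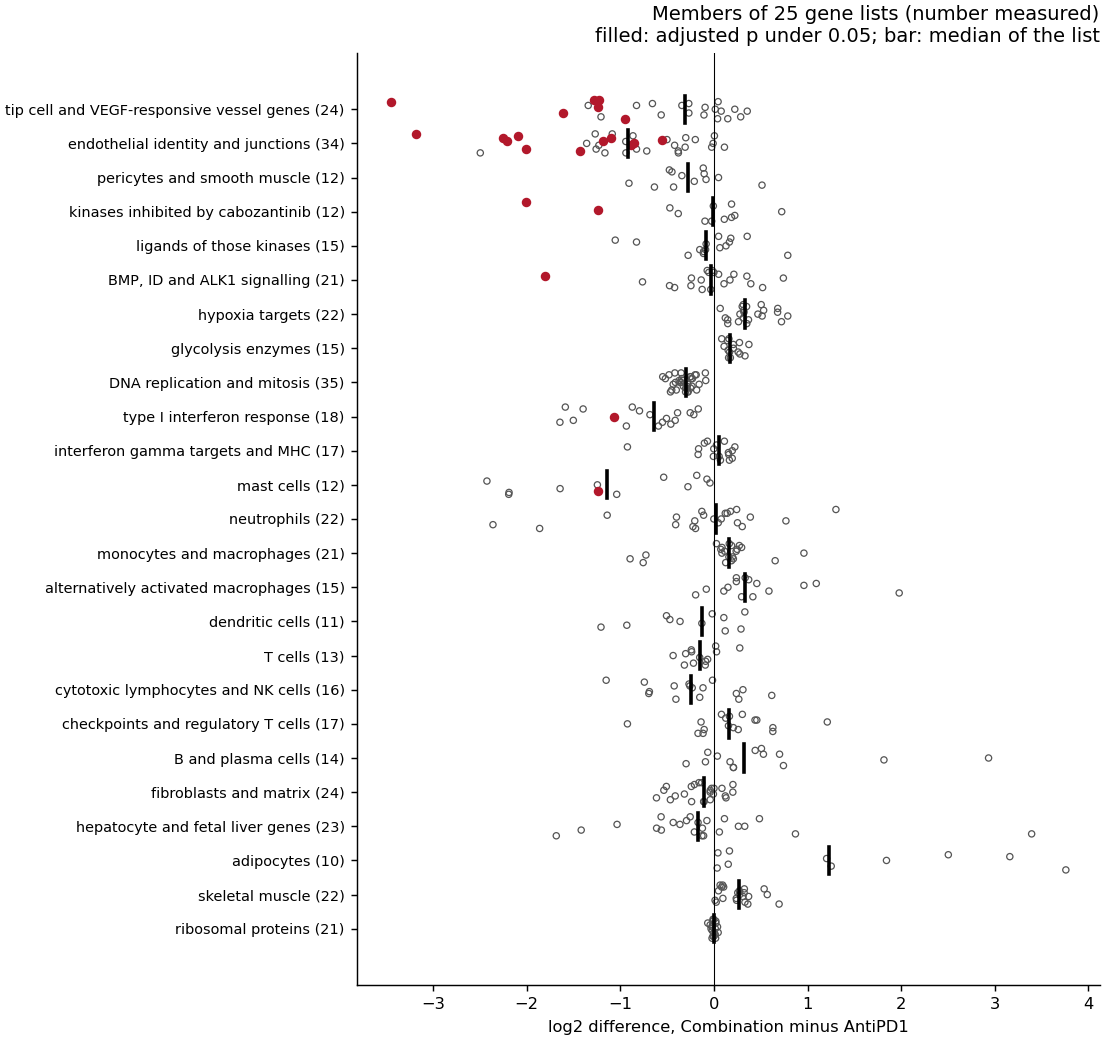
Log2 difference, Combination minus AntiPD1, of each measured member of 25 gene lists (points; filled where the adjusted p was under 0.05), with the list's median (bar). The 11 filled points of the endothelial list and 6 of the tip cell list lie left of 0, and the hypoxia points lie right of 0 with none filled.

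Genes outside any list came closest on the rising side, given as values because fewer than 5 genes rose. Tenm4 read 7.58, 7.46 and 6.52 against 8.25, 8.28, 8.66 and 8.72 (change 1.29 ± 0.26, SE; adjusted p = 0.0586). Ppp1r3b, a subunit that targets a phosphatase to glycogen, read 8.04, 7.62 and 7.67 against 8.44, 8.43, 8.31 and 8.27 (change 0.58 ± 0.11, SE; adjusted p = 0.0585). Aifm2, the ferroptosis suppressor FSP1, changed by 0.53 ± 0.11 (SE; adjusted p = 0.0638). Slco1a5, an organic anion transporter gene, changed by 1.12 ± 0.23 (SE), Kif13a, a kinesin gene, by 0.44 ± 0.09 (SE) and the complement gene C6 by 1.14 ± 0.24 (SE), with adjusted p values of 0.0654 to 0.0737.

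Adjoining tissue differed between tumours. The mean of 22 skeletal muscle genes, centred on the 16 tumours, was -1.53, 3.96 and -1.65 in the AntiPD1 tumours and -1.53, -1.59, 0.28 and 4.92 in the Combination tumours. One tumour of each group was thus far above the rest, and no muscle gene rose or fell, also at an unadjusted p under 0.05. Myl1, a myosin light chain gene, read 6.57, 12.51 and 5.45 against 7.09, 6.30, 9.14 and 12.96. The mean of 10 fat cell genes was -0.65, 0.58 and -0.69 in the AntiPD1 tumours and 2.27, 1.84, 0.00 and 0.51 in the Combination tumours. All 10 had a change above 0, with a median of 1.23, and 2 had an unadjusted p under 0.05, but none rose. Adipoq, the adiponectin gene of fat cells, read 4.32, 8.30 and 4.43 against 11.38, 10.94, 7.19 and 8.25 (change 3.76 ± 1.70, SE; adjusted p = 0.666). The fat list lay higher and the vessel lists lower in the Combination tumours. The part of adjoining tissue in these and other results was not tested beyond the following fits. With the fat mean as a covariate 35 genes were lower, but only 27 of the 39 were among them. Without the arrays high in fat genes 6 of the 39 passed. With the muscle mean 59 were lower, all 39 among them, whereas 10 of the 39 passed without the arrays high in muscle genes. With the mean of the macrophage genes as a covariate 84 were lower.

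**Figure D5:**
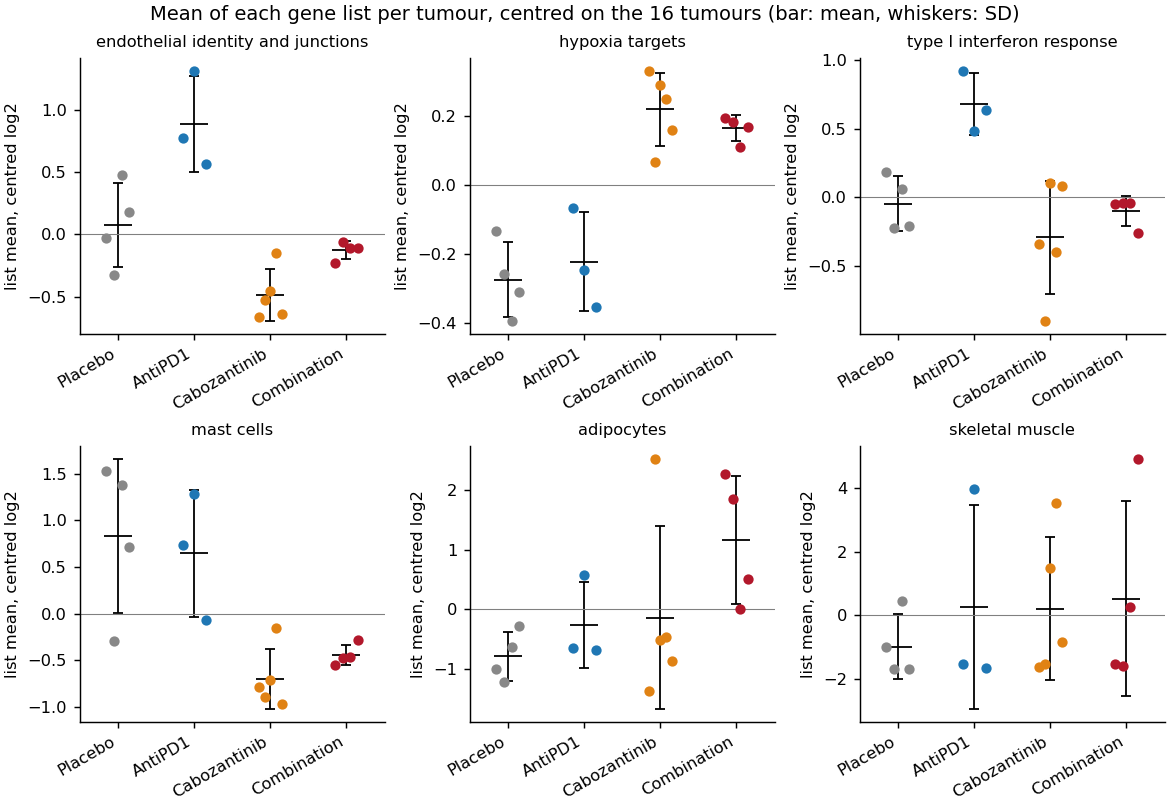
Mean of 6 gene lists in each tumour (1 point per tumour), in log2 units centred on the 16 tumours, with the mean (bar) and SD (whiskers) of each treatment group. The 3 AntiPD1 tumours lie between 0.57 and 1.31 for the endothelial list and between 0.48 and 0.93 for the interferon list, above all 4 Combination tumours, whereas the muscle panel shows 1 tumour of each group far above the rest.

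The same drug without the antibody was tested on other tumours, 5 Cabozantinib against 4 Placebo, which share no array with the 7 above. Placebo mice were injected with hamster IgG and the labels name no injection for Cabozantinib mice, so drug and injections cannot be told apart here or in the difference built on this comparison. There 25 genes fell (0.146%) and 19 rose (0.111%), against 3 and 1 in a fit of those groups alone. Both comparisons used the same estimate of each gene's spread, made over all 16 arrays. Their p-values, and the counts below that set one comparison beside the other, are therefore not independent. With 1 array left out the falls were 43, 5 and 12 without Placebo replicates 1, 3 and 4, 16 without Cabozantinib replicate 3 and 38 without AntiPD1 replicate 3. The rises were 48, 3, 0 and 2 without Placebo replicates 1 to 4, 5, 10, 7 and 11 without Cabozantinib replicates 1, 2, 3 and 5, and 9 without Combination replicate 1. Both comparisons called 11 genes, all lower in both: Adgrf5, Apold1, Bmp2, Cdh5, Clca2, Emcn, Esm1, Gpihbp1, Hbb-b2, Slc40a1 and Trp53i11. They are 27.5% of the 40 calls with the antibody and 25% of the 44 without it. All 39 genes that fell with the antibody had a change below 0 without it, 34 with an unadjusted p under 0.05 (all genes lower at that p, 7.07%). The 19 genes that rose without the antibody all had a change above 0 with it, 15 with an unadjusted p under 0.05 (3.28% of all genes), and the 25 that fell all had a change below 0, 21 with such a p (3.94%). Over all genes the changes of both comparisons had a Pearson correlation of 0.608 and a Spearman correlation of 0.497, across genes, which are not independent.

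Of the 22 hypoxia targets, 5 passed the test without the antibody. Ero1a (0.74 ± 0.14, SE), Gbe1 (0.83 ± 0.14), Gys1 (0.76 ± 0.11), Mxi1 (0.44 ± 0.08) and P4ha2 (0.74 ± 0.12) rose, and 15 of the 22 were higher at an unadjusted p under 0.05 (5.91% of all genes). All but Ero1a were named after their values were seen. These calls were lost without Placebo replicate 3, where 0 genes rose, and 1 gene of all rose in the fit of those groups alone. The difference between the changes with and without the antibody passed for 0 of the 22 targets, and 0 had an unadjusted p under 0.05. With the antibody, Gbe1 changed by 0.68 and Gys1 by 0.52. Rgs5 and Kcnj8, both pericyte genes, fell without the antibody by 0.94 and 0.70, against changes of -0.64 and -0.48 with it. The interferon list had a median of -0.30 without the antibody, with 3 of 18 members above 0, against -0.64 with it. S100a8 and S100a9 changed by 1.92 ± 0.52 (SE) and 2.26 ± 0.56 without the antibody, against 0.08 and 0.30 with it. Neither passed without it (adjusted p = 0.136 and 0.105), and neither did the difference between the changes (-1.84 and -1.96; adjusted p = 0.99972 for both).

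The mean level of the AntiPD1 tumours lay above that of the Placebo tumours for all 39 lowered genes, and for 20 of them without overlap. Their choice favours high AntiPD1 values, so this order is a description. Esm1 averaged 6.73 ± 0.47 (SD, n = 4) in Placebo, 8.26 ± 0.42 (n = 3) in AntiPD1, 4.66 ± 0.17 (n = 5) in Cabozantinib and 4.81 ± 0.28 (n = 4) in Combination tumours. Cdh5 averaged 6.32 ± 0.30, 7.49 ± 0.28, 4.99 ± 0.39 and 5.28 ± 0.27 in that order, and Kdr 6.15 ± 0.48, 7.03 ± 0.50, 5.06 ± 0.63 and 5.03 ± 0.11. Ptn was the most distinct, at 4.37 ± 0.40, 6.65 ± 0.05, 4.36 ± 0.68 and 4.49 ± 0.44, near background in all groups but AntiPD1. The fall was larger with the antibody for 37 of the 39 genes, with a median of -1.27 against -0.75, but these genes were chosen for their fall with it, which enlarges that side. The test of the difference itself, the change with the antibody minus the change without it, called 0 genes (0%; smallest adjusted p = 0.99972), and 440 had an unadjusted p under 0.05 (2.57%). It called 1 gene without AntiPD1 replicate 2 (Igkv14-111) and 1 without AntiPD1 replicate 3 (Prnd). Among the 39, 19 had an unadjusted p under 0.05, a count that their choice by the fall with the antibody also enlarges. The largest statistics on the negative side were those of Esm1 (-1.38 ± 0.32, SE), Ptn (-2.16 ± 0.46), Prnd (-1.83 ± 0.40), Chga (-1.0 ± 0.24) and Mirg, and on the positive side Igkv14-111 (2.38 ± 0.51), Fstl4, Dzank1, Hsd17b7 and Prss40. Apart from Igkv14-111, the genes on the positive side changed by at most 0.29 with the antibody.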

How the data were processed

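RNA of 16 tumours was hybridised to 1 Affymetrix mouse array each, from 50 ng of total RNA per the labels. The deposited values are log2 signals made by the authors with RMA (affy 1.62.0), per the submitters' processing notes, and were used without further scaling. Of 45141 probe sets, 28898 had 1 gene symbol in the platform annotation, and the probe set with the highest mean was kept for each of 17097 genes; 551 had several symbols and 15588 had none. A model with 4 group means was fitted to all arrays with limma 3.58.1 in R 4.3.3 (lmFit and eBayes, residual df 12), with p-values adjusted over all genes and a threshold of 0.05. The number of arrays limits the precision, and an exact permutation test of 3 against 4 tumours cannot go below 0.0571. Replicate numbers follow accession order. The titles give each tumour a further identifier whose first number, of unstated meaning, is shared by some tumours: 4 of its 12 values are held by more than 1 tumour, and 0 by tumours both with and without cabozantinib, so what it stands for and the drug cannot be told apart. P-values set a difference between group means against the spread between tumours within groups, estimated over all 4 groups. On simulated data for Combination against AntiPD1 over 17097 genes, the fit recovered 37.3% of 67 genes changed by 0.5 log2 units. It recovered 77.6% of 67 changed by 1 and 100% of 66 changed by 2, with 7 false calls. The simulated noise was normal and independent between genes, and the changed genes had a mean above the highest array median. Genes near background and tumours with adjoining tissue were not simulated, so these shares may be too high for the real data.

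The members and gene lists were chosen with earlier results of these data known. Named genes were the 12 largest falls past the threshold, the 8 largest statistics on a side with fewer than 5 calls, up to 6 passing members of each list or else its 2 largest statistics, a panel of treatment targets and cell markers, and the 5 largest statistics on each side of the difference between comparisons. Promoters came from RefSeq. Alternatives covered the normalization, the choice of probe sets, a filter on low signals, array weights, the variance model, tissue covariates, left-out arrays and, added after seeing the data, a random block on the first number of the titles and leaving out the arrays high in fat genes.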

Additional observations from a re-analysis of the deposited data

Results flagged for a closer look

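Of 152 gene levels and list means in the Combination group, 10 had 1 tumour whose gap to the others exceeded Dixon's 95% limit for groups of 4, against 7.6 that chance gives. The 3 AntiPD1 tumours were too few for this check. Combination replicate 2 stood apart with a high Aifm2 (7.51), a high Col6a3 (11.09), a low Emcn (5.79) and a high dendritic cell list mean (0.41). Combination replicate 1 stood apart with a high Tie1 (4.78). Combination replicate 4 stood apart with a low Tnfrsf9 (8.43), a high Tnnt1 (8.31), a troponin gene of slow muscle, and with list means of -0.38 for neutrophil-attracting chemokines, -0.26 for type I interferon genes and 0.44 for hepatocyte and fetal liver genes. This tumour also had the highest skeletal muscle mean of all 16, 4.92, and the part of muscle in these values was not tested. Outside the gene table, 13 probe sets without 1 gene symbol passed the threshold in Combination against AntiPD1 in a fit of all 45037 probe sets, 8 lower and 5 higher.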

How the results depend on the processing

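The count of 39 lowered genes was 21 in a fit of the 2 groups alone, 24 among genes with a mean above the lowest array median, 118 with array weights, 59 with the muscle mean and 84 with the macrophage mean as a covariate, 14 without the arrays high in muscle genes and 6 without those high in fat genes. It ranged from 12 to 49 with 1 array left out. Of the 39, 14 passed in the fit of the 2 groups alone and 27 with the fat covariate. All 39 kept their direction in each fit that tested them, and Esm1, Gpihbp1, Cdh5, Apold1 and Clca2 passed in each. The 1 raised gene was another, 9130015A21Rik, in the fit of the 2 groups alone, and the count became 2 with quantile normalization, with equal array medians and with the fat covariate, 5 with the mean of all probe sets, with a trended robust variance, with the muscle covariate and without the arrays high in muscle genes, 37 with array weights, 18 with the macrophage covariate, 0 without the arrays high in fat genes, and 1 to 4 with 1 array left out. In Cabozantinib against Placebo, 25 falls became 3 in the fit of those groups alone, 39 with array weights and without the arrays high in muscle genes, 42 with the muscle and 180 with the macrophage covariate, 12 without the arrays high in fat genes, and 5 to 43 with 1 array left out. The 19 rises became 1 in the fit of those groups alone, 32 with array weights, 34 without the arrays high in muscle genes, 141 with the macrophage covariate, 3 without the arrays high in fat genes, 45 with the mean of all probe sets, 36 with the filter on low signals, 10 with the fat covariate, and 0 to 48 with 1 array left out. The difference of the changes had 1 call without the arrays high in muscle genes (Serpina1a), 1 with the macrophage covariate (Ifi213), and 0 to 1 with 1 array left out. The cause of these shifts was not tested; fits with fewer arrays also have fewer degrees of freedom.

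Only genes that did not pass changed sign. Cxcl2 was at -0.30 with array weights, -0.22 without the arrays high in muscle genes and -0.30 without those high in fat genes. S100a8 was at -0.16, -0.054 and -0.38 with array weights, the fat covariate and without the arrays high in fat genes, and S100a9 at -0.16 in the last. Flt1 was at 0.11 without the arrays high in muscle genes and 0.047 with the fat covariate, Gzmb at 0.0060 and Tnnt1 at -0.060 in the former, Pdcd1 at 0.040 in the latter, Mki67 at 0.0025 with array weights, and Uty at 0.037 with the mean of all probe sets and 0.20 without the arrays high in muscle genes. With 1 array left out the changes ranged from -0.51 to 0.61 (Cxcl2), -0.39 to 0.42 (S100a8), -0.16 to 0.72 (S100a9), -0.13 to 0.060 (Flt1), -0.62 to 0.15 (Gzmb), -0.63 to 0.90 (Tnnt1), -0.42 to 0.030 (Pdcd1), -0.16 to 0.0028 (Mki67), -0.35 to 0.087 (Uty) and -0.67 to 2.86 (Myl1). No paired analysis was possible because no number in the titles is shared between Combination and AntiPD1 tumours. With that number as a random block, chosen after seeing the data (correlation -0.103), 36 genes fell, 35 of them among the 39, and Flt1 was at 0.0017. Levels near the array background limit how far a fall can be measured.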
